A study of Mus musculus with 4 samples.

Results

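Canonical Wnt target genes are genes whose transcription is raised by beta-catenin, and 6 of them are described here, Axin2, Lef1, Sp5, Lgr5, Nkd1 and Ascl2. Their members are all probe sets that the array platform's annotation gives to 1 of these 6 genes alone, which came to 14 of the 34945 probe sets with 1 gene, and 6 of the 18193 genes read. RNA was measured on Affymetrix mouse arrays in 4 samples, with 1 array per group and so no replicates. The groups were Snai1 knockout embryoid bodies on day 5, control embryoid bodies of genotype F/F on day 5, Snai1 knockout teratomas at week 6 and control F/F teratomas at week 6. Embryoid bodies are balls of embryonic stem cells, here started in hanging drops and then kept in suspension, that differentiate spontaneously. Teratomas are tumours of mixed tissues that the same kinds of cell formed after injection under the skin of male nude mice aged 6 weeks. Nude mice lack a thymus and mature T cells but keep B cells, so host RNA can be part of a teratoma sample. The labels do not give how Snai1 was deleted, how many clones were used, or whether a sample pools several cultures or tumours.

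In the canonical Wnt pathway, a secreted Wnt protein binds a Frizzled receptor and a low-density lipoprotein receptor-related co-receptor, and the complex that destroys beta-catenin is held back. Beta-catenin then enters the nucleus, binds transcription factors of the TCF/LEF family and raises the transcription of target genes. Several targets act on the pathway itself. Axin2 is a scaffold of the destruction complex and Nkd1 binds Dishevelled, so both feed back negatively on the signal. Lef1 is a TCF/LEF factor, and Lgr5 is a receptor for R-spondins, which strengthen Wnt signals. Sp5 is a zinc finger factor that acts downstream of Wnt in the early mouse embryo, and Ascl2 is a basic helix-loop-helix factor needed in the trophoblast and known in intestinal stem cells. In the early embryo the pathway is needed to form the primitive streak. Snai1 is a zinc finger repressor that binds E-box sequences and acts in epithelial to mesenchymal transition.

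Promoter sequences are shown for Sp5 and Ascl2, which differed most between embryoid bodies together with Lgr5, and for Nkd1, which differed most between teratomas. RefSeq windows on build GRCm38.p6, running from 250 bases before to 50 bases after a transcript start, were matched for 5 of the 6 genes, in 8 windows of which 4 belong to Lef1. The windows are written 5′ to 3′ on the gene's own strand. Capitals mark either a TCF/LEF word (CTTTGAA or CTTTGAT or CTTTGTA or CTTTGTT, none of which overlaps the E-box word) or the E-box word CAGGTG, both searched on both strands. The Sp5 window is chr2:70474673-70474972 on the plus strand, the Ascl2 window is chr7:142969215-142969514 on the minus strand, and the Nkd1 window is chr8:88527383-88527682 on the plus strand.
Sp5: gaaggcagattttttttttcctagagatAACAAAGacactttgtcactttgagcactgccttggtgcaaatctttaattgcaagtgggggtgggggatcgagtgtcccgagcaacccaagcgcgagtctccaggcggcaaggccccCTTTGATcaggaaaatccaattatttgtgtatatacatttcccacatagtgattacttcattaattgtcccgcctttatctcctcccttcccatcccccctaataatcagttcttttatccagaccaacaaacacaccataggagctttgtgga
Ascl2: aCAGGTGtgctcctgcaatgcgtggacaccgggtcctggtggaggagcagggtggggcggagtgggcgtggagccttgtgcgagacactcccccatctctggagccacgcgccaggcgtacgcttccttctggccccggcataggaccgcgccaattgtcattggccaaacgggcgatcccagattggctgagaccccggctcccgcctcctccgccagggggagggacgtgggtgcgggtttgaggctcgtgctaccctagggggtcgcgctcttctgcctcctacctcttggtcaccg
Nkd1: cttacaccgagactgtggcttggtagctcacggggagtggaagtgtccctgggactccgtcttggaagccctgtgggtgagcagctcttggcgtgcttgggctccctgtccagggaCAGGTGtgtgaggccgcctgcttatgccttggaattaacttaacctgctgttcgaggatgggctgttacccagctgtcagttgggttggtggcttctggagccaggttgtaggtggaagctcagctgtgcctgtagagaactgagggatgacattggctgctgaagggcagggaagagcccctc
The Sp5 window held 2 TCF/LEF words, CTTTGTT on the opposite strand at bases -222 to -216 from the start and CTTTGAT on the gene's strand at bases -104 to -98, and it held 0 E-box words. The Ascl2 window held the E-box word at bases -249 to -244, and the Nkd1 window held it at bases -134 to -129. Among the other members, 1 of the 4 Lef1 windows held a TCF/LEF word, another Lef1 window held an E-box word, and the Axin2 window held neither. Across all windows of this length, 5544 of 32851 (16.9%) held a TCF/LEF word and 6640 (20.2%) held the E-box word, so 2 of 8 and 3 of 8 member windows are small counts beside common words. A match describes letters in the window and is not a binding site.

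Values are log2 expression levels as deposited, and a fold is taken from a difference of log2 values. Such values have no true zero, so the median probe set of an array, 4.71 to 5.08, served as that array's floor. Lower values were raised to it before subtraction, a difference with 1 array below its floor is given as a bound, and none is given with both below. Of the 14 member probe sets, 11 lay above the floor on at least 1 array and 5 lay above it on all 4. Where a gene has several probe sets, the one highest on average stands for it. As a measure of spread, the standard deviation between probe sets of the same gene, pooled over genes, was 0.29 for the knockout minus control difference in embryoid bodies and 0.28 in teratomas (log2). That spread comes from single arrays and holds no variation among separate cultures or tumours.

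Across probe sets, knockout and control arrays had a Pearson correlation of 0.982 in embryoid bodies and of 0.985 in teratomas, and arrays of different tissue one of 0.864 to 0.880. Snai1, the targeted gene, read 3.45 in the knockout embryoid body, under the floor, against 4.78 in the control embryoid body, just above it. In teratomas it was below the floor in both the knockout (3.44) and the control (3.59), so the array gives no check of the teratoma labels through Snai1. Whether the probe set lies in the deleted part is not given in the sources used here. All 6 neuron markers lay above the floor on both teratoma arrays, against 2 of 6 on each embryoid body array, and 7 and 6 of 9 primitive streak markers did so in knockout and control embryoid bodies, against 2 in each teratoma.

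In embryoid bodies, 3 of the 6 genes were at least 2-fold higher in the Snai1 knockout than in the control and 0 were at least 2-fold lower. Over all 12282 genes measured, 2.18% passed 2-fold upwards and 3.98% downwards. The 3 genes were Sp5, Lgr5 and Ascl2, and the other 3, Axin2, Lef1 and Nkd1, lay within 2-fold. The median over the 6 genes was 1.07 on the log2 scale, beside 0.03 over all genes measured. In bulk samples like these, fewer cells of a type and less RNA per cell cannot be told apart.

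Sp5 was 8.65 in the knockout embryoid body and 7.0 in the control embryoid body, 3.14-fold higher (log2 difference 1.65), and 58 genes with Sp5 included, 0.472% of those measured, differed at least as far upwards. Lgr5 was 7.49 in the knockout embryoid body against 5.76 in the control, 3.33-fold higher (1.73), a difference that 41 genes or 0.334% matched or passed. A second Lgr5 probe set was below the floor on all 4 arrays, at 3.60 to 4.01, so the Lgr5 result rests on 1 probe set, and taking the mean of both brings the difference to 0.84. Sp5 has only 1 probe set.

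Ascl2 was 7.0 in the knockout embryoid body against 5.34 in the control, 3.16-fold higher (1.66), with 56 genes or 0.456% at least as high. All 3 Ascl2 probe sets were higher in the knockout embryoid body. The other probe sets read 5.62 and 4.85 there, against 4.14 and 3.22 in the control, both below the floor of 4.71, so they give bounds of at least 0.91 and at least 0.14 (log2). Without the floor the 3 probe sets differed by 1.48, 1.63 and 1.66. Raising the floor to the 65th percentile gives Ascl2 a bound of at least 0.79, not called at 2-fold, since its control value is then below the floor.

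The feedback genes and Lef1 lay closer together. Axin2 was 7.15 in the knockout embryoid body and 6.66 in the control, 1.4-fold higher (0.49), which 9.51% of genes matched or passed. Its second probe set was below the floor on all 4 arrays. Lef1 was 6.97 in the knockout embryoid body and 7.07 in the control, a difference of -0.10, and a second Lef1 probe set read 6.09 in the knockout and 5.91 in the control, a difference of 0.18. Nkd1 was 6.78 in the knockout embryoid body and 6.87 in the control, a difference of -0.09. The Lef1 and Nkd1 differences are smaller than the 0.29 spread between probe sets, and that of Axin2 is larger, though it is 0.16 with the mean of its probe sets.

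**Figure D1:**
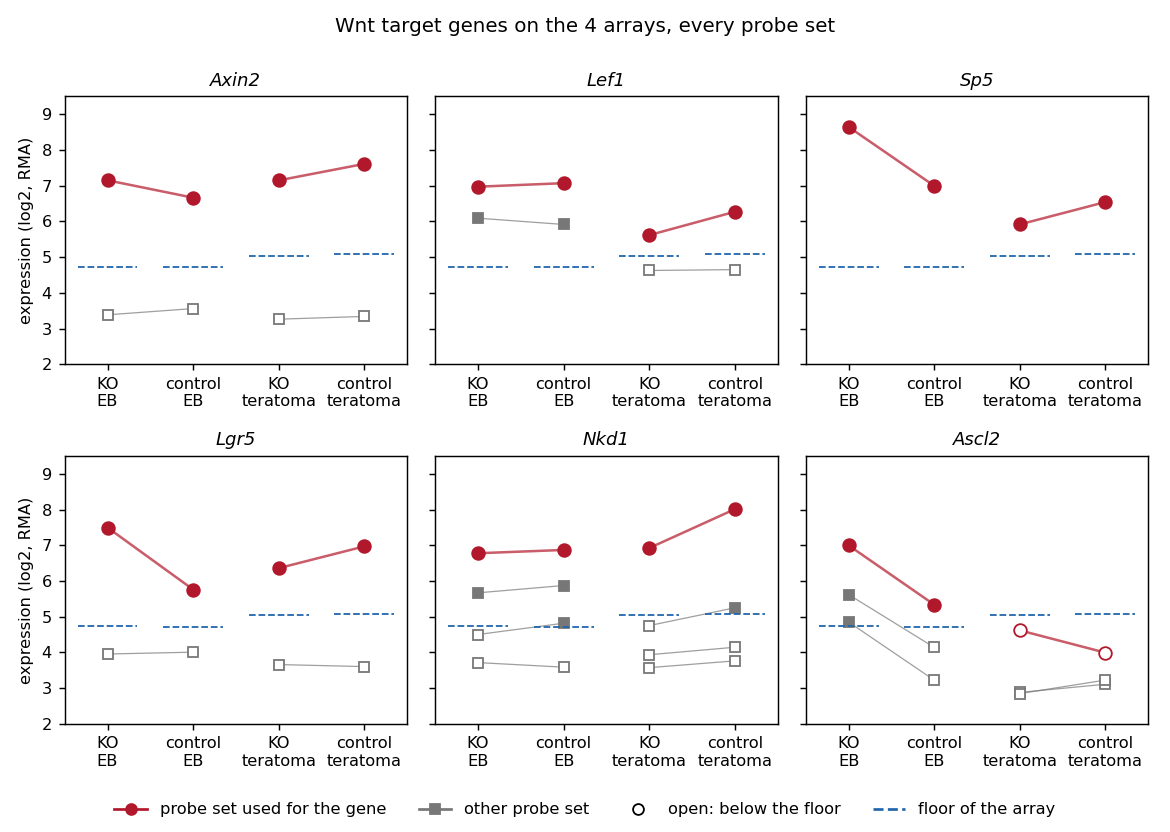
Log2 expression of the 6 genes on the 4 arrays, 1 point per probe set and array. Red circles are each gene's probe set of highest mean, grey squares its other probe sets, open symbols values below the floor, and dashed lines the array floors. By the probe set of highest mean, Sp5, Lgr5 and Ascl2 were highest in the knockout embryoid body, while Axin2 and Nkd1 were highest in the control teratoma.

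In teratomas, all 5 of the genes that could be measured lay below their control values in the Snai1 knockout. Of these, 1 gene, Nkd1, was at least 2-fold lower. Ascl2 lay below the floor in both teratomas. With a 25th percentile floor or none Ascl2 is measured too and lies above 0, so that 5 of 6 genes lie below 0. That Ascl2 sign comes from 1 probe set, at 0.62. Its other probe sets, also below the main floor in both teratomas, differed by -0.23 and -0.38 without a floor. Over all 12197 genes measured, 1.07% passed 2-fold downwards and 3.25% upwards, and 0 members were among the higher ones. The median of the 5 genes was -0.63, beside 0.06 over all genes, of which 42.0% lay below 0. Axin2, Sp5 and Lgr5, 3 of the 5, were above 0 in embryoid bodies and below 0 in teratomas, as were 24.6% of all genes measured in both.

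Nkd1 was 6.92 in the knockout teratoma against 8.01 in the control teratoma, 2.13-fold lower (-1.09), a difference that 103 genes or 0.844% matched or passed downwards. The 3 other Nkd1 probe sets differed by -0.50, -0.21 and -0.19 without the floor. Those at -0.21 and -0.19 were below the floor on both teratoma arrays, so with the floor they give no difference. The highest of the 3 read 4.75 in the knockout teratoma, below the floor, and 5.25 in the control, a bound of -0.20. The size of the Nkd1 difference rests on 1 of 4 probe sets, and with the mean of them it is -0.25.

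Lef1 was 5.62 in the knockout teratoma and 6.27 in the control, 1.57-fold lower (-0.65). The second Lef1 probe set was below the floor in both teratomas, at 4.62 in the knockout and 4.65 in the control. Sp5 was 5.92 in the knockout teratoma and 6.54 in the control, 1.54-fold lower (-0.63). Lgr5 was 6.36 in the knockout teratoma and 6.97 in the control, 1.53-fold lower (-0.61). Axin2 was 7.15 in the knockout teratoma and 7.61 in the control, 1.38-fold lower (-0.46). Between 3.93% and 7.98% of all genes lay at least as low as these 4 genes, and all 4 differences exceeded the 0.28 spread between probe sets. With the mean of probe sets Lef1 comes to -0.34, Axin2 to -0.27 and Lgr5 to -0.24, and with the floor at the 65th percentile Sp5 comes to -0.09. Ascl2 was below the floor in both teratomas, at 4.62 in the knockout and 3.99 in the control, so no fold is given.

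**Figure D2:**
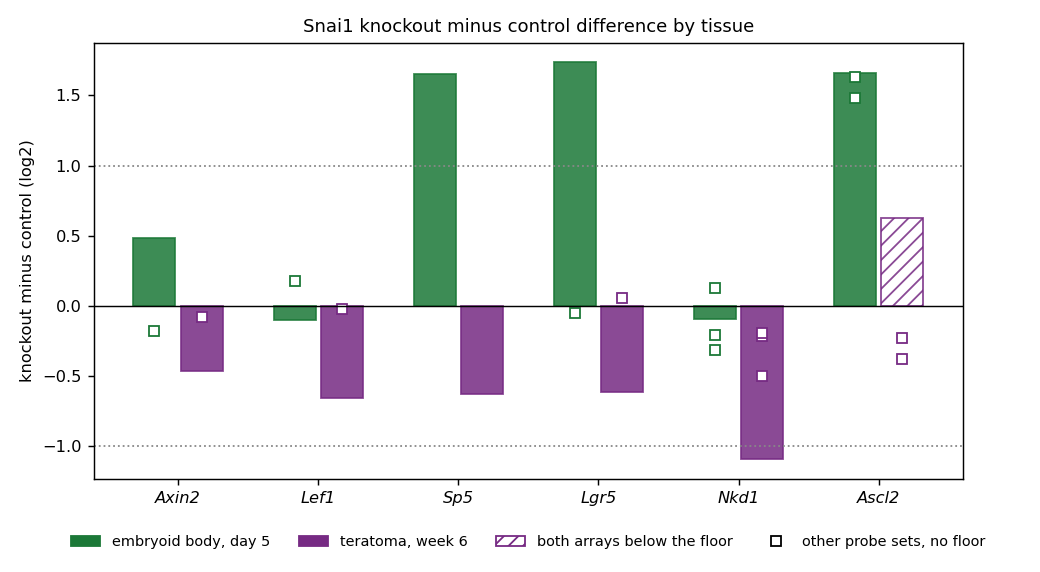
Snai1 knockout minus control difference in log2 expression for each gene, in embryoid bodies and teratomas, with open squares for a gene's other probe sets and no floor applied. The bars of Sp5, Lgr5 and Ascl2 pass 1 in embryoid bodies, and that of Nkd1 passes -1 in teratomas.

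The embryoid body and teratoma comparisons share no array, so the difference between them can be taken gene by gene, though with 1 array per group it was not tested. The embryoid body difference minus the teratoma difference was 0.95 for Axin2, 0.55 for Lef1, 2.27 for Sp5, 2.34 for Lgr5 and 1.00 for Nkd1 (log2). All 5 were above 0, against 46.7% of the 11187 genes measured in both tissues, and their median was 1.00 beside -0.04 over all genes. Sp5 and Lgr5 passed 2 on this scale, which 44 genes or 0.393% did.

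**Figure D3:**
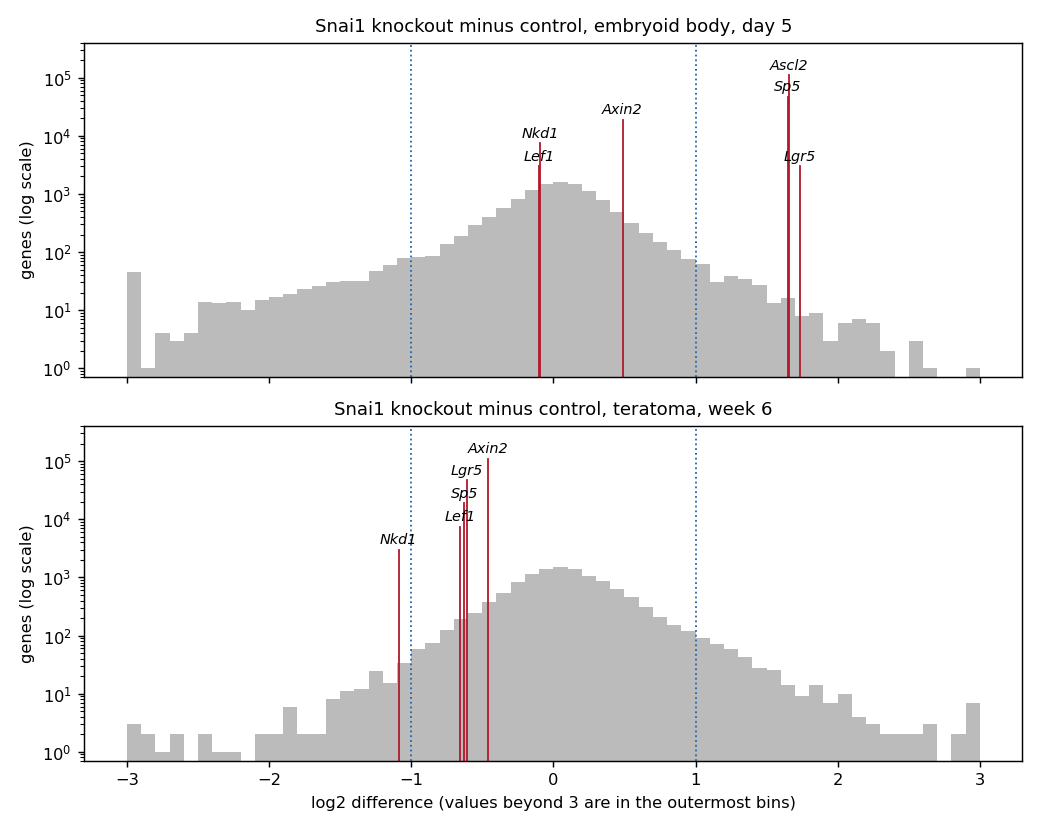
Number of genes (log scale) by knockout minus control log2 difference, embryoid bodies above and teratomas below, with red lines at the Wnt target genes and dotted lines at 2-fold. Sp5, Lgr5 and Ascl2 stand in the upper tail in embryoid bodies at 1.65 to 1.73, and the 5 genes measured in teratomas lie at -1.09 to -0.46.

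The order of the 4 arrays, by the probe set of highest mean, differed from gene to gene. Between tissues the spread between probe sets was 0.65 in the knockout and 0.66 in the control. Array medians were also higher in teratomas (5.04 and 5.08) than in embryoid bodies (4.73 and 4.71). Gaps between tissues smaller than that spread do not fix an order. They include those of Axin2 (0.46), Sp5 (0.46) and Lgr5 (0.53 and 0.60). Sp5 ran from the knockout embryoid body (8.65) through the control embryoid body (7.0) and the control teratoma (6.54) to the knockout teratoma (5.92), a range of 2.73. Lgr5 was highest in the knockout embryoid body, next in the control teratoma (0.53 lower), then the knockout teratoma and the control embryoid body, a range of 1.73. Lef1 was highest in the embryoid bodies, whose gap of 0.10 is under the spread between probe sets, and lowest in the knockout teratoma, over a range of 1.45. Axin2 was highest in the control teratoma, while the knockout embryoid body and the knockout teratoma differed by 0.00169, and its range was 0.95. Nkd1 was highest in the control teratoma, and the gap from it to the next array was 1.09, against gaps of 0.05 and 0.09 among the rest. A second Nkd1 probe set was instead highest in the control embryoid body, at 5.87, against 5.25 in the control teratoma. Ascl2 lay above the floor in the embryoid bodies alone, so its teratoma arrays have no order.

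Between tissues, teratomas were set against embryoid bodies within each genotype. These comparisons share arrays with those between genotypes, so their values are given side by side and not as further support. Tissue, time, host cells and RNA extraction, by Trizol for teratomas and by columns for embryoid bodies, cannot be told apart. In the knockout, 4 of the 6 genes were at least 2-fold lower in the teratoma and 0 at least 2-fold higher, where 19.8% of all 12936 genes were at least 2-fold lower and 19.8% at least 2-fold higher. In the control, 2 genes were at least 2-fold higher and 0 lower, where 16.2% of all 12956 genes were higher and 19.0% lower. These shares of all genes are large, and member counts of this size are read as a description.

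In the knockout, Sp5 was 5.92 in the teratoma against 8.65 in the embryoid body, 6.63-fold lower, and Lef1 was 5.62 against 6.97, 2.56-fold lower. Lgr5 was 6.36 in the knockout teratoma against 7.49 in the knockout embryoid body, 2.20-fold lower, and Ascl2 was at least 3.87-fold lower. Axin2 was 7.15 in both, and Nkd1 differed by 0.15. In the control, Lgr5 was 6.97 in the teratoma against 5.76 in the embryoid body, 2.31-fold higher, and Nkd1 was 8.01 against 6.87, 2.21-fold higher. A second Nkd1 probe set, above the floor on both control arrays, ran the other way, at -0.62. With the mean of probe sets Nkd1 comes to 0.005 and Lgr5 to 0.40, so both counts rest on 1 probe set each. Axin2 was 7.61 in the control teratoma against 6.66 in the control embryoid body, 1.93-fold higher. Lef1 and Sp5 were lower in the control teratoma, by differences of -0.80 and -0.46, and Ascl2 was at least 1.19-fold lower. The spread between probe sets was 0.65 and 0.66 on the log2 scale in these comparisons, larger than between genotypes and larger than the differences of Nkd1 in the knockout and of Sp5 in the control. With each array centred on its own median, the all-gene median moved to -0.46 in the knockout and -0.55 in the control, and Lgr5 and Nkd1 in the control then came under 2-fold, at 0.84 and 0.77, while Lef1 came to 2-fold lower, at -1.17. Nkd1 in the knockout then turned to -0.17.

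Around these 6 genes, 94 of 98 other listed genes of the Wnt pathway were read. In embryoid bodies, 8 of the 68 measured (11.8%) were at least 2-fold higher in the knockout and 6 (8.82%) at least 2-fold lower. Over all genes measured there, 2.18% were higher and 3.98% lower. The pathway median was 0.17, beside 0.03 over all genes. In teratomas 1 of 68 (1.47%) was higher and 2 (2.94%) were lower, where 3.25% of all genes were higher and 1.07% lower. The pathway median there was -0.20, beside 0.06 over all genes. Counts of 1 and 2 genes are read as a description. The same shares of all genes stand beside the counts of the single lists below. The list was chosen with earlier results of these data known.

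Among receptors, Fzd5 was 9.94 in the knockout embryoid body and 8.08 in the control, a difference of 1.87, and Fzd8 was 8.49 against 7.02, a difference of 1.47. In teratomas Fzd5 was 5.82 in the knockout and 6.75 in the control, a difference of -0.92, and Fzd8 was 5.50 against 6.03, a difference of -0.52 that is -0.05 with the mean of its probe sets. Frizzled receptors bind Wnt proteins, and the receptor list of 14 genes had a median of 0.34 in embryoid bodies and -0.45 in teratomas. No measured receptor was at least 2-fold lower in the knockout in either tissue. In teratomas 0 of 13 measured were at least 2-fold higher.

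Secreted inhibitors sit outside the cell and limit Wnt signals, and 5 of the 9 measured in embryoid bodies were at least 2-fold higher in the knockout and 2 were at least 2-fold lower. Dkk1, which binds the co-receptor, was 9.84 in the knockout embryoid body and 8.37 in the control, a difference of 1.47, and in teratomas 5.42 in the knockout and 6.80 in the control, a difference of -1.38 that comes to -0.11 with the mean of its probe sets. Cer1, an antagonist of Nodal and BMP proteins in the mouse whose Xenopus counterpart also blocks Wnt proteins, was 8.37 in the knockout embryoid body and 6.72 in the control, a difference of 1.65, and Frzb was 10.22 against 8.75, a difference of 1.47. The list median was 1.14 in embryoid bodies and -0.42 in teratomas. The first comes to 0.21 with a floor at the 25th percentile and to 0.17 with no floor, as more of its low members are counted.

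The Wnt ligands gave 0 of 8 measured at least 2-fold higher in the knockout embryoid body and 1 at least 2-fold lower, Wnt2 (5.70 in the knockout, 7.58 in the control, a difference of -1.87). All 8 ligands measured in teratomas lay below their control values in the knockout, where 42.0% of all genes did, but Wnt7b (-0.03), Wnt7a (-0.06) and Wnt5a (-0.07) were within the spread between probe sets. The ligand median of -0.37 comes to -0.06 with no floor. Beta-catenin itself, its destruction complex and their partners gave 0 of 12 past 2-fold in either tissue, with medians of 0.06 in embryoid bodies and 0.04 in teratomas. Of 10 further Wnt target genes measured in embryoid bodies, Dkk1 again was at least 2-fold higher and 2 were at least 2-fold lower. The lower ones include Cd44, an adhesion receptor, at 7.43 in the knockout and 8.64 in the control (-1.20, or -0.79 with the mean of its probe sets). Paralogs of the 6 genes gave 0 of 8 past 2-fold in embryoid bodies, and in teratomas 1 of 10, Lgr6, at 6.66 in the knockout against 5.46 in the control, a difference of 1.20 that comes to 0.45 with the mean of probe sets. TCF factors and their nuclear partners gave 1 of 10 at least 2-fold higher in embryoid bodies and 0 lower, with medians of 0.26 there and -0.16 in teratomas. R-spondins and their receptors gave 0 of 6 higher and 1 lower in embryoid bodies, and 1 of 5 higher in teratomas.

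**Figure D4:**
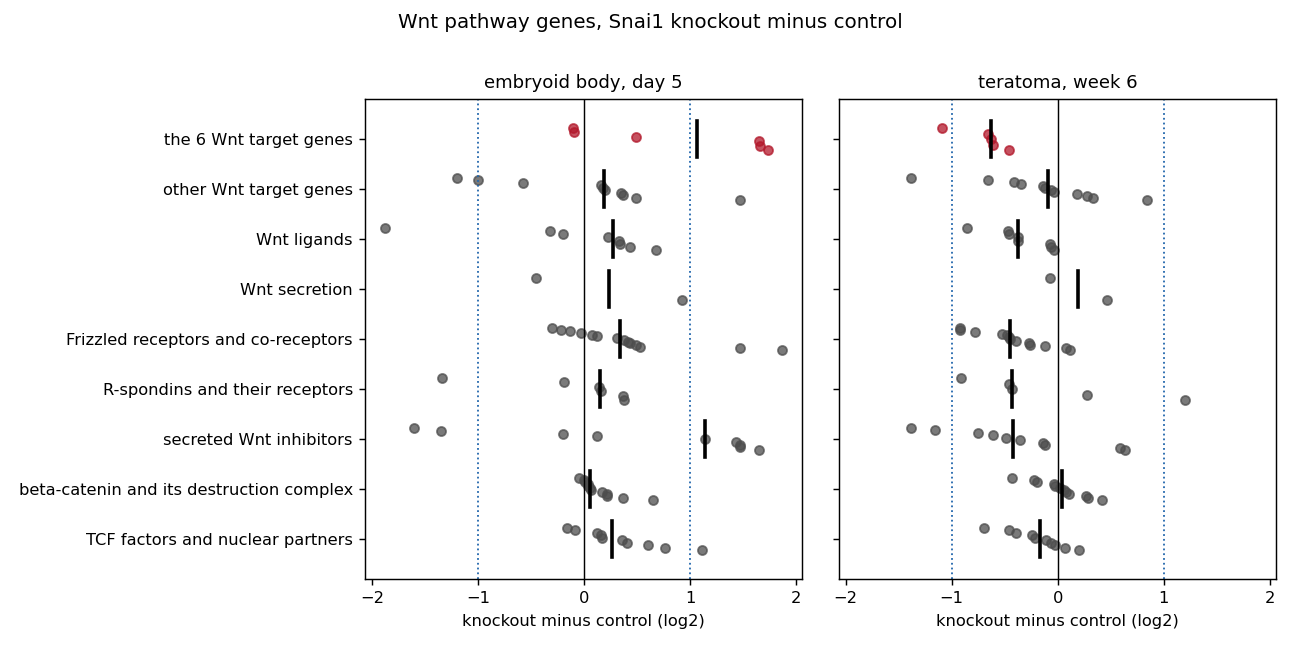
Knockout minus control log2 differences of the Wnt pathway genes by list, embryoid bodies and teratomas. In embryoid bodies Fzd5, Fzd8, Dkk1, Cer1 and Frzb are among the genes above 1. Wnt2, Dkk2, Dkk3, Rspo1, Cd44 and, only just, Apcdd1 stand below -1 there. In teratomas Dkk1 and Sfrp1 stand below -1 and Lgr6 above 1.

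Markers of the cell types these tissues could hold were read beside the genes, and their part in the results was not tested. The summed linear level of 9 primitive streak markers was 3213 in the knockout embryoid body and 907 in the control, and 7 of 7 measured were at least 2-fold higher in the knockout, with a median of 1.72, or 0.74 with the floor at the 65th percentile. Of this list Tbx6 and Wnt3 were below the floor on every array. Epiblast markers summed to 5028 in the knockout embryoid body and 1901 in the control, and 5 of 6 were at least 2-fold higher. Gut and crypt markers summed to 2995 in the knockout embryoid body and 3596 in the control. Of 7 measured, Olfm4 was higher by at least 1.47, with its control value below the floor. Tff3 (-4.11), Smoc2 (-3.95) and Cdx2 (-1.70) were at least 2-fold lower. Mesenchyme markers summed to 1118 in the knockout embryoid body and 21364 in the control, and 6 of 8 were at least 2-fold lower, with a median of -4.06. Trophoblast markers, a cell type that holds Ascl2, summed to 8386 in the knockout embryoid body and 7930 in the control, mostly from Krt8 (12.92 in the knockout and 12.77 in the control on the log2 scale). Of 6 measured, Gata3 was at least 2-fold higher (1.30) and Hand1 (-1.87) and Cdx2 (-1.70) were at least 2-fold lower, with Tpbpa below the floor on every array.

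In teratomas, gut and crypt markers summed to 5482 in the knockout and 5990 in the control, with Cdx1, Muc2 and Krt20 below the floor on every array. Tff3 read 5.95 and Smoc2 6.01 in the knockout teratoma (log2), and Olfm4 and Cdx2 were below the floor there. Most of the sum thus came from other genes of the list. Mesenchyme markers were 18047 in the knockout teratoma and 29886 in the control, all 8 lower and 2 of 8 at least 2-fold. Neuron markers were 9271 in the knockout teratoma and 5930 in the control, and 4 of 6 were at least 2-fold higher. Lymphocyte markers were 3094 in the knockout teratoma and 133 in the control. Cd3e, Cd3g, Cd3d, Cd79a and Rag1 were below the floor on every array, while Ighm differed by 6.14. Leukocyte markers were 4036 in the knockout teratoma and 1796 in the control, and 4 of 5 measured were at least 2-fold higher. Pluripotent cell markers were 956 in the knockout teratoma and 567 in the control, and hair follicle and epidermis markers were 1401 in the knockout teratoma and 1744 in the control.

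Genes whose pattern over the 4 arrays lay nearest were found by the root mean square difference of values centred on each gene's own mean, over 12783 candidate genes and without the floor. With 4 points these are descriptions, and 6 of the 12 genes named lay below the floor on at least 1 array, so their distances rest partly on background readings. The nearest to Axin2 were Meox1 (0.0467) and Plet1 (0.0586), and the nearest to Lef1 were Hyls1 (0.0298) and Dsp (0.0306). The nearest to Sp5 were Dapk2 (0.0704) and Mapk13 (0.102), and the nearest to Lgr5 were Eya2 (0.0879) and Slain1 (0.129). The nearest to Nkd1 were Fam162b (0.0630) and Col6a4 (0.0733), each above the floor on 1 array alone. The genes named for Ascl2 were Rab38 (0.0964) and Plaur (0.153), with Ascl2 itself below the floor in both teratomas. Meox1, Hyls1, Eya2 and Plaur were each below the floor on at least 1 array. Among the 5 genes above the floor on all arrays, the closest pair was Axin2 and Nkd1 (0.314) and the farthest was Sp5 and Nkd1 (1.29).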

How the data were processed

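RNA from 4 samples, 1 per group, was read on Affymetrix mouse arrays. Per the labels' protocols, each sample's labelled RNA came from 250 ng of total RNA. The deposited file gives 1 log2 value for each probe set and array. The authors used affy and RMA, per the submitters' processing notes, a method that corrects background, normalizes by quantiles and summarises probes. The sources used here give neither versions nor whether the 4 arrays were processed jointly.

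The table held 45101 probe sets, of which 64 were controls. Of the rest, 34945 named 1 gene in the platform annotation, 932 named more than 1 and 9160 none. Probe sets of several genes were left out, and 0 of them named a member. Entrez numbers of 34741 matched RefSeq (GRCm38.p6). Named genes are the members, the Snail family, up to 4 genes per list by largest absolute knockout minus control difference, measured paralogs, and 2 nearest patterns per member. Some further genes are named where a count or a limit of a list called for them. The members and lists were chosen with earlier results of these data known. Differences were computed with Python 3.11.15, numpy 2.4.6 and pandas 2.3.3, and tested on simulated data. With 1 array per group there are no p-values. Alternatives were another floor, no floor, the mean of probe sets, no shared-sequence probe sets, median centring, quantile normalization and thresholds of 1.5-fold and 3-fold.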

Additional observations from a re-analysis of the deposited data

Results flagged for a closer look

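Some genes and lists differed in opposite directions in the 2 tissues, each by more than the pooled spread between probe sets of a gene. The value is the embryoid body difference minus the teratoma difference, knockout minus control in each (log2). The difference between tissues was not tested, since each group has 1 array. Among the 6 Wnt target genes it was 2.34 for Lgr5, 2.27 for Sp5 and 0.95 for Axin2. With the mean of probe sets Axin2 differed by 0.16 in embryoid bodies and Lgr5 by -0.24 in teratomas, and with the floor at the 65th percentile Sp5 differed by -0.09 in teratomas, all within that spread.

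Among other pathway genes it was 2.85 for Dkk1, 2.79 for Fzd5, 2.26 for Cer1, 1.99 for Fzd8, 1.83 for Frzb, 1.42 for Fzd2, at least 1.30 for Rspo2, whose control embryoid body lay below the floor, 1.15 for Fzd6, 1.13 for Wnt4, 0.87 for Sp4, 0.81 for Wnt9a and 0.81 for Tcf7l2. Only the paralogs and up to 4 genes per list, those with the largest differences, were searched. Among them Cd44 alone ran the other way, at -2.05. With the mean of probe sets the opposite differences stayed beyond the spread for Fzd5, Fzd6, Wnt4 and Cd44, and for Sp5, which has 1 probe set. Wnt9a, Cer1 and Frzb could then not be measured in teratomas, and the other genes searched and flagged lay within the spread in at least 1 tissue. Pathway genes outside the search also met the rule at the main settings. Sfrp1 differed by 1.44 in embryoid bodies and -1.16 in teratomas, and Fzd7, Fzd1 and Wnt11 ran the same way by less. Dkk3 ran the other way, at -1.35 in embryoid bodies and 0.59 in teratomas. For 2 lists the medians of the tissues had opposite signs, each beyond the spread. They lay 0.79 apart for Frizzled receptors and co-receptors and 1.56 apart for secreted Wnt inhibitors. The medians of these 2 lists come from partly different genes. Medians of opposite sign, within the spread in at least 1 tissue, were also found for 4 more lists. These were the Wnt ligands, the R-spondins and their receptors, the TCF factors and the further Wnt target genes. Over the genes measured in both tissues the median of the gene's own value was 0.70 for 13 receptors, 12 of them above 0, and 1.19 for 8 inhibitors, 5 of them above 0.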

How the results depend on the processing

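With 1 array per group, no value here has a replicate check, and low probe sets limit what can be measured. No paired analysis was possible because each group has 1 array. No member's knockout minus control difference turned sign under median centring or quantile normalization. The members' median in embryoid bodies was 0.64 with a floor at the 65th percentile, 0.50 with the mean of probe sets and 0.31 without shared-sequence probe sets, against 1.07. In teratomas it was -0.27 with the mean of probe sets, against -0.63. For teratoma minus embryoid body in the knockout it was -0.53 with the 65th percentile floor and -0.57 without shared-sequence probe sets, against -1.25. The median difference between tissues was 1.37 with that floor and 0.43 with the mean of probe sets, against 1.00. Members at least 2-fold different between teratomas numbered 0 with the mean of probe sets, 4 at 1.5-fold and 0 at 3-fold, against 1. Between tissues in the knockout they numbered 2 with the 65th percentile floor, with the mean of probe sets and at 3-fold, against 4. In the control they numbered 1 (higher) with that floor, 1 with the mean of probe sets (Lef1, lower, -1.03), 1 with median centring (Lef1, lower, -1.17), 4 at 1.5-fold and 0 at 3-fold, against 2, both higher. Ascl2 there was also lower, at -1.34, under a 25th percentile floor or none. Ascl2 in embryoid bodies was no longer called with the 65th percentile floor (at least 0.79) or without shared-sequence probe sets (at least 0.14). Both values are bounds set by a control value below the floor, and both enter the members' medians above. Without a floor the Ascl2 probe sets differed by 1.48 to 1.66. Lgr5 in embryoid bodies came under 2-fold at 0.84 with the mean of probe sets, and Nkd1 in teratomas at -0.25 with the mean. The causes were not tested. Over all genes, the 65th percentile floor gave 169 higher and 310 lower in embryoid bodies, against 268 and 489, and 262 and 76 in teratomas, against 397 and 131. The mean of probe sets gave 86 lower and quantile normalization 206 lower in teratomas, and quantile normalization put 64.5% of calls higher, against 75.2%. Median centring put 34.97% of calls higher between tissues in the knockout, against 50.02%, and 27.2% in the control, against 46.1%, with 4100 lower against 2456. Pathway genes at least 2-fold lower in knockout embryoid bodies numbered 3 with the 65th percentile floor, against 6, and in knockout teratomas 5 with quantile normalization, against 2. Of 1689 values of single genes, lists and counts, 189 moved further than the spread, 12 of them with a turned sign, and 25 more turned sign within it.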
